A study of Capsella grandiflora x Capsella rubella and Capsella rubella and Capsella grandiflora with 8 samples.

Results

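Hybrid seeds set by C. grandiflora mothers after pollination with C. rubella (Cg × Cr, mother first) were compared with seeds that C. rubella set with its own species (Cr). Both crosses had a C. rubella father, so the comparison changed the species of the mother. It covered every gene of the count table that passed a filter on low counts, 21214 of 26521 genes, in 4 of the 8 libraries of the study, 2 per cross. The seeds of C. grandiflora pollinated by C. grandiflora (Cg) and those of the reciprocal hybrid C. rubella × C. grandiflora (Cr × Cg), also with 2 libraries per cross, shared the fit and are quoted where they place a gene. Pollen was applied by hand 2 days after the anthers of the mother had been removed, and the selfing species was treated no differently. A library held the RNA of 300 to 500 whole seeds collected 6 days after pollination (DAP). The paper calls the 2 libraries of a cross biological replicates.

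A seed consists of an embryo, an endosperm that receives more maternal than paternal genomes, and a seed coat that is maternal tissue. The endosperm of Brassicaceae first divides as a syncytium, then forms cell walls, and is later consumed by the growing embryo, and its breakdown draws on proteases, cell wall enzymes and sugar transporters. Exchanging the mother thus exchanged the genotype of the seed coat, the maternal genomes of endosperm and embryo and the maternal cytoplasm together, and these cannot be told apart. In whole seeds, fewer cells of a type and less RNA per cell cannot be told apart either. The paper reports that the endosperm formed its cell walls earlier in Cg × Cr than in Cr seeds. Seeds collected at the same age can thus differ in stage, and the part of this in any change was not tested. The reads of all crosses were aligned to the C. rubella genome, where reads of C. grandiflora alleles can be lost, and the part of this in a lower count in Cg × Cr was not tested.

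The 4 libraries held between 24860795 and 33989559 counts. Embryo regulators were detected in all 4, for example FUS3 at 174 and 106 CPM in Cg × Cr and 83.0 and 113 CPM in Cr, where CPM is the count scaled to a common library total after TMM normalization. One Cr library stood apart in seed storage proteins: the homologue of AT5G44120, a cruciferin (Carubv10012738m.g), was at 2350.5 CPM in Cr replicate 1 and 23.9 CPM in Cr replicate 2, and at 307 and 78.0 CPM in the Cg × Cr libraries. The summed level of the 5 storage protein genes was 9846 and 101 CPM in Cr and 2740.4 and 639 CPM in Cg × Cr, with replicate 1 the higher in all 4 crosses. In Cr, 54 genes were more than 8-fold higher in replicate 1 and 3 in replicate 2. In Cg × Cr these numbers were 38 and 16.

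At 6 DAP, 968 genes were higher and 405 lower in Cg × Cr than in Cr (edgeR's quasi-likelihood test, Benjamini-Hochberg adjusted p under 0.05), which is 4.56% and 1.91% of the genes tested. The raised genes changed more than the lowered ones. Their median log2 fold change was 3.04 (3.01 with genes uncounted in Cr set to a lower bound), with quartiles of 1.66 and 5.44. For the lowered genes the median fall was by 1.93, with quartiles of 1.27 and 2.68. A change of at least 16-fold was fitted for 372 raised genes (38.4%) and for 34 lowered genes (8.40%). Low levels in one cross were common among them: 477 of the raised genes averaged under 1 CPM in Cr, and 82 of the lowered genes averaged under 1 CPM in Cg × Cr. The median over all tested genes was 0.01. In all 1373 called genes the library values of the 2 crosses did not overlap, which also held for 27.5% (higher) and 25.7% (lower) of all genes.

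**Figure D1:**
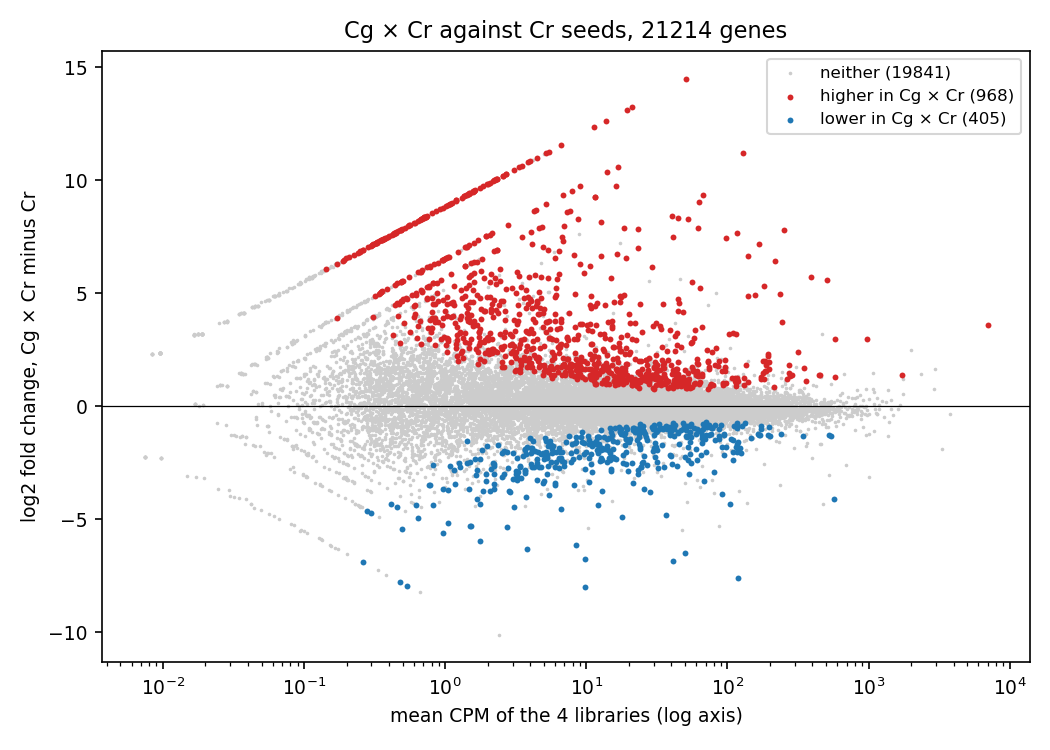
Each point is 1 of 21214 genes, with its mean CPM over the 4 libraries on a log axis and its log2 fold change between Cg × Cr and Cr, red where higher (968) and blue where lower (405) at an edgeR adjusted p under 0.05. Raised genes reach larger changes (upper quartile 5.44) than lowered ones (2.68).

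With 2 libraries per cross the number of calls leaned on each library. Without Cr replicate 1 there were 321 higher and 141 lower genes, and without Cr replicate 2 there were 175 and 59. Leaving out Cg × Cr replicate 1 or 2 gave 431 and 390 higher and 144 and 183 lower genes. The 156 higher and 47 lower genes that were called with all libraries and in each of the 8 fits without 1 of them are named below as held in every fit.

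The raised genes with the largest changes (among called genes averaging at least 1 CPM) had no counts in Cr. Carubv10007795m.g had 3981 and 1860 counts in Cg × Cr and none in Cr, at least 2044-fold higher against a floor of 3 counts over both Cr libraries. It was at 132 and 70.3 CPM in Cg × Cr and 95.3 and 128 CPM in Cg. For Carubv10001198m.g the Cg × Cr libraries had 1524 and 905 counts against none, at least 849.9-fold. It was at 50.6 and 34.2 CPM in Cg × Cr and 43.4 and 43.1 CPM in Cg. Neither gene has a name or an Arabidopsis partner in the tables used, and both calls held in every fit. Carubv10012339m.g had 389 and 1699 counts in Cg × Cr and none in Cr, and its hybrid libraries lay far apart. Its call was lost without Cr replicate 1 (0.125), Cr replicate 2 (0.175), Cg replicate 2 (0.0503), Cr × Cg replicate 1 (0.0807), Cr × Cg replicate 2 (0.0779) or Cg × Cr replicate 2 (0.0696), where the adjusted p is given in brackets.

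Genes without a count in Cr were frequent. Of the genes tested, 325 had counts in Cg × Cr and none in either Cr library, and 121 of them were called. In the other direction 49 genes had counts in Cr and none in Cg × Cr, of which 3 were called. Taking at most 1 count per library in place of 0 gave 189 and 9 called genes. Carubv10002883m.g was the uncounted gene in Cg × Cr with the highest level in Cr, 4.71 and 4.92 CPM, and did not pass (edgeR adjusted p = 0.0997). The loss of C. grandiflora reads in alignment, named above, can lower a count in Cg × Cr but not in Cr. Whether an absent count came from a lost or diverged gene, from unaligned reads or from no transcript was not tested in either direction.

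Other raised genes were counted in both crosses. The expansin and the gene pair given first were among the 4 with the smallest p-values (mean of at least 1 CPM). The homologue of EXPA9, an expansin that loosens cell walls (Carubv10001761m.g), rose from 3.62 and 3.04 CPM in Cr to 113 and 136 CPM in Cg × Cr (log2 fold change 5.22, SE 0.24, edgeR adjusted p = 8.2e-05). Its 2 libraries per cross lay close together, and Cg was at 152 and 159 CPM. The pair Carubv10020899m.g and Carubv10020898m.g, without Arabidopsis partners, behaved alike: the first was at 117 and 153 CPM in Cg × Cr and 0.267 and 0.117 CPM in Cr (log2 fold change 9.37, SE 0.38, edgeR adjusted p = 8.2e-05). The second was at 47.4 and 45.2 CPM in Cg × Cr and 0.326 and 0.390 CPM in Cr (log2 fold change 7.01, SE 0.31, edgeR adjusted p = 8.2e-05). All these calls held in every fit. The homologue of CSY1, a peroxisomal citrate synthase (Carubv10019340m.g), was at 204 and 308 CPM in Cg × Cr and 0.0296 and 0.195 CPM in Cr (log2 fold change 11.22, SE 0.66, edgeR adjusted p = 0.000414). SULTR3;5, a sulfate transporter family member (Carubv10000408m.g), was chosen after its values were seen. It was at 99.2 and 71.4 CPM in Cg × Cr and 3.23 and 3.20 CPM in Cr (log2 fold change 4.73, SE 0.33, edgeR adjusted p = 0.000717). Both calls held in every fit, and both genes were near the level of the Cg mother, 559 and 357 CPM for CSY1 and 74.8 and 129 CPM for SULTR3;5.

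The raised gene with the most counts was Carubv10006370m.g, paired with AT4G12870, a member of the GILT family of thiol reductases. It took 1.48 and 1.16% of all counts in the Cg × Cr libraries and 0.142 and 0.0685% in Cr (log2 fold change 3.62, SE 0.44, edgeR adjusted p = 0.00466). The Cr libraries lay below all 6 others, and Cg was at 18389.6 and 14542 CPM beside 14455 and 11317 CPM in Cg × Cr. This call held in every fit. Another GILT family gene, Carubv10005793m.g (partner AT4G12900), was chosen after its values were seen. It was at 390.3 and 436 CPM in Cg × Cr and 185 and 137 CPM in Cr (log2 fold change 1.36, SE 0.31, edgeR adjusted p = 0.0394). Its call was lost without Cr replicate 1 (0.0928), Cr replicate 2 (0.25), Cg × Cr replicate 1 (0.103) or Cg × Cr replicate 2 (0.127), the adjusted p in brackets.

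The homologues of Arabidopsis genes were taken from the gene pairs that the study's tables list, 3669 genes of which 3316 were tested. Many of these pairs were chosen by the study as deregulated in its own seeds, so they are not a neutral sample: 6.79% were higher and 3.56% lower, against 4.56 and 1.91% of all genes. Families were counted against these shares.

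**Figure D2:**
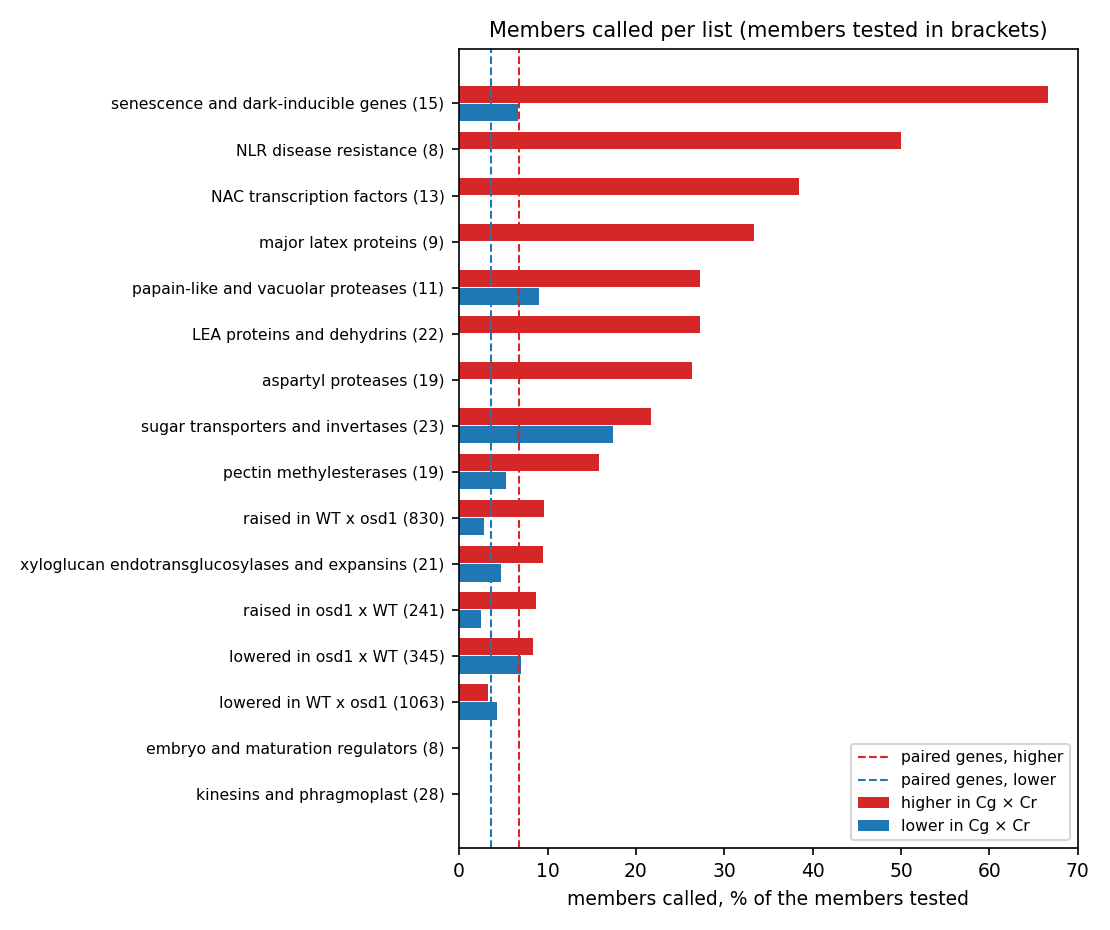
Bars give the percentage of the tested members of each list called higher (red) or lower (blue) in Cg × Cr than in Cr, with the number of members in brackets, and dashed lines give the same for all 3316 paired genes (6.79 and 3.56%). Senescence and dark-inducible genes had 10 of 15 members higher, kinesin and phragmoplast genes none in either direction.

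Genes that mark senescing, dark-treated or starved leaves in Arabidopsis were raised in Cg × Cr. Of 15 tested members, 10 rose and 1 fell, with a median log2 fold change of 3.08 against 0.03 over all paired genes. The NAC family of transcription factors, which holds several regulators of senescence, had 5 of 13 members higher, none lower, and a median of 1.31. No NAC gene was called without Cr replicate 1, Cr replicate 2 or Cg × Cr replicate 2, and 2 were without Cg × Cr replicate 1. Some NAC genes stand in both lists. Both were written with results of these data in view and describe these libraries only.

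Among the NAC genes, the homologue of NAC047 (Carubv10014000m.g) was at 9.23 and 16.0 CPM in Cg × Cr and 0.267 and 0.156 CPM in Cr (log2 fold change 5.85, SE 0.92, edgeR adjusted p = 0.0121). The 2 Cg libraries, at 0.0666 and 0.518 CPM, and the 2 Cr × Cg libraries, at 0.0597 and 0.253 CPM, were as low as Cr, and only the Cg × Cr libraries stood high. NAP, a NAC activator of leaf senescence (Carubv10020776m.g), had 63 and 52 counts in Cg × Cr and none in Cr, at least 40.2-fold higher (edgeR adjusted p = 0.0241). ANAC055, a NAC factor of abscisic acid and jasmonate responses (Carubv10014211m.g), was at 5.71 and 9.42 CPM in Cg × Cr and 0.919 and 0.663 CPM in Cr (log2 fold change 3.24, SE 0.58, edgeR adjusted p = 0.0182). Against the Cg mother too it was higher (log2 fold change 2.94, edgeR adjusted p = 0.0405). For ORS1, a NAC promoter of senescence (Carubv10017737m.g), the values were 2.49 and 3.67 CPM in Cg × Cr and 0.119 and 0.390 CPM in Cr (log2 fold change 3.61, SE 0.76, edgeR adjusted p = 0.0312). For ANAC074 (Carubv10005139m.g) they were 2.89 and 2.50 CPM in Cg × Cr and 0.296 and 0.0390 CPM in Cr (log2 fold change 3.91, SE 0.86, edgeR adjusted p = 0.0365). All 5 had Cg × Cr libraries above the 6 libraries of the other crosses. ORE1, the best-known senescence NAC (Carubv10005201m.g), did not differ detectably, at 23.3 and 56.3 CPM in Cg × Cr and 22.8 and 43.3 CPM in Cr (log2 fold change 0.27, SE 0.43, edgeR adjusted p = 0.764).

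Enzymes and other markers of senescence moved with them. SGR1, which starts the removal of magnesium from chlorophyll (Carubv10005494m.g), was at 47.2 and 43.9 CPM in Cg × Cr and 18.5 and 22.2 CPM in Cr (log2 fold change 1.17, SE 0.21, edgeR adjusted p = 0.0195). The gene paired with its close relative SGR2, AT4G11910, and with AT4G11911 (Carubv10001681m.g) was at 8.86 and 10.7 CPM in Cg × Cr and 0.711 and 1.68 CPM in Cr (log2 fold change 3.04, SE 0.50, edgeR adjusted p = 0.0134). Both Cg × Cr libraries lay above the libraries of all other crosses in each. ASN1, a glutamine-dependent asparagine synthetase that darkness induces (Carubv10016913m.g), was at 4.71 and 4.92 CPM in Cg × Cr and 0.148 and 0.234 CPM in Cr (log2 fold change 4.64, SE 0.91, edgeR adjusted p = 0.0251). DIN2, a dark-inducible beta-glucosidase (Carubv10016921m.g), had 49 and 56 counts in Cg × Cr and 1 and 0 in Cr, a ratio of 110.2 times (95% exact counting interval 19.4 to 4394). Unlike the NAC genes it was higher still in Cr × Cg, at 5.16 and 13.0 CPM. SRG1, an oxygenase named for its rise in senescence (Carubv10009827m.g), was at 10.5 and 6.32 CPM in Cg × Cr and 0.474 and 0.273 CPM in Cr (log2 fold change 4.46, SE 0.55, edgeR adjusted p = 0.00475), and at 6.09 and 10.4 CPM in Cg. SAG21, a small LEA protein (Carubv10002338m.g), was at 14.5 and 11.7 CPM in Cg × Cr and 1.16 and 1.95 CPM in Cr (log2 fold change 3.08, SE 0.45, edgeR adjusted p = 0.00846). XTH24, a xyloglucan-modifying enzyme (Carubv10005183m.g), was at 288 and 303 CPM in Cg × Cr and 88.3 and 76.4 CPM in Cr (log2 fold change 1.84, SE 0.31, edgeR adjusted p = 0.0145). The member that fell was SWEET15, a sucrose exporter that feeds the embryo in Arabidopsis seeds (Carubv10002612m.g), at 71.3 and 123 CPM in Cg × Cr and 213 and 262 CPM in Cr (log2 fold change -1.29, SE 0.31, edgeR adjusted p = 0.0480). DRM1, a marker of dormant buds (Carubv10010620m.g), was at 18.0 and 9.53 CPM in Cg × Cr and 1.36 and 0.156 CPM in Cr and did not pass (edgeR adjusted p = 0.0777). Of these 13 calls, 11 were lost without Cr replicate 1 (highest adjusted p 0.121), 11 without Cr replicate 2 (0.218), 6 without Cg × Cr replicate 1 (0.175) and 9 without Cg × Cr replicate 2 (0.116), and 2 without 1 of the Cg or Cr × Cg libraries. The list kept 2 raised members without either Cr library, and 6 and 3 without Cg × Cr replicate 1 and 2.

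**Figure D3:**
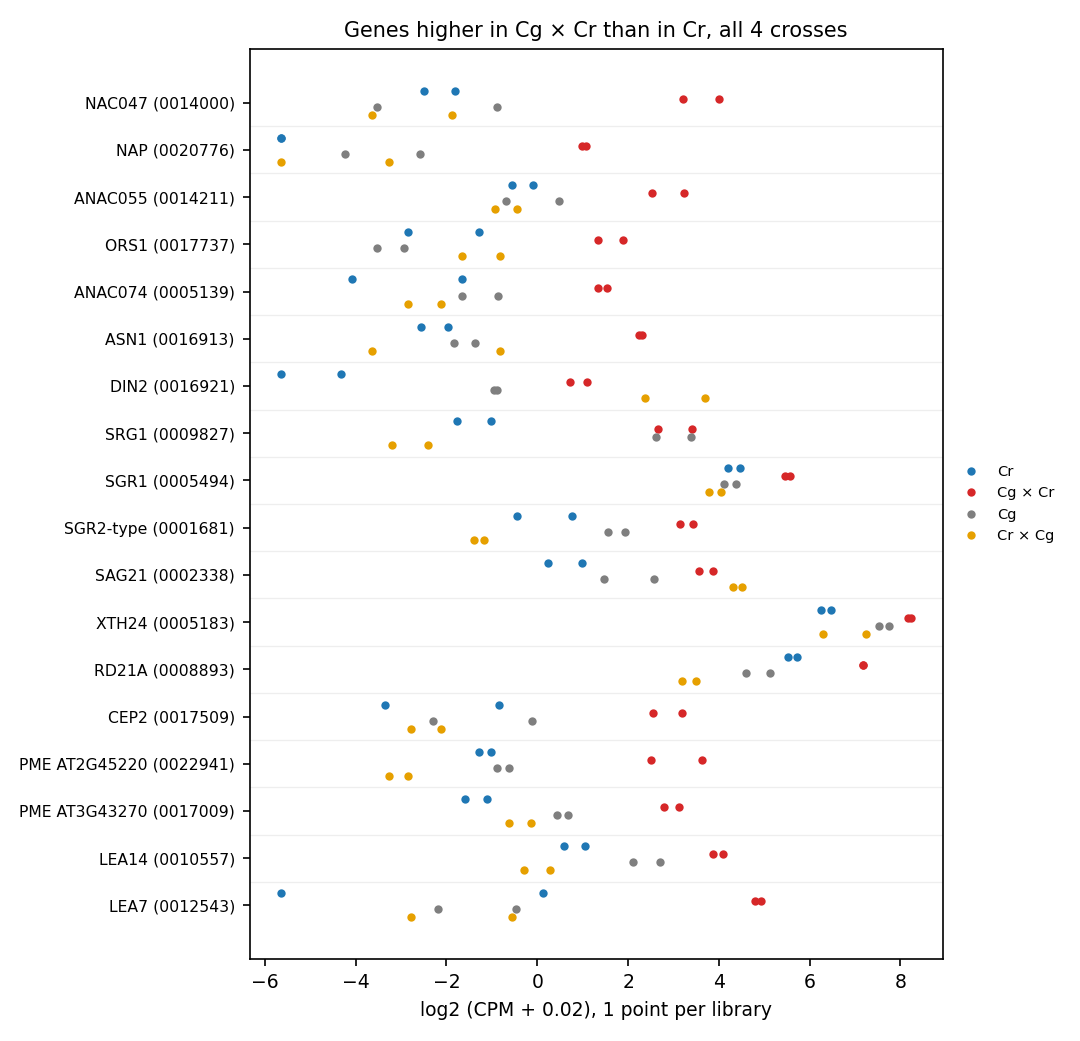
Each row is 1 gene and each point 1 library of the 4 crosses, on a log2 axis of CPM plus 0.02. The Cg × Cr libraries (red) lie above the Cr libraries (blue) in every row, and NAC047 is at most 0.518 CPM in the other 3 crosses, while SRG1 is as high in Cg.

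A further 4 regulators were chosen after their values were seen, because they were higher in Cg × Cr, and stand for no wider group. HB21, a homeodomain-leucine zipper factor (Carubv10014603m.g), was at 6.47 and 14.9 CPM in Cg × Cr and 0.0889 and 0.0780 CPM in Cr (log2 fold change 6.92, SE 0.85, edgeR adjusted p = 0.00475), with Cg at 0.533 and 0.999 CPM. HB12, a relative that water deficit and abscisic acid induce (Carubv10017952m.g), was at 5.74 and 4.58 CPM in Cg × Cr and 0.919 and 0.585 CPM in Cr (log2 fold change 2.76, SE 0.59, edgeR adjusted p = 0.0322). The kinase MAPKKK17, an abscisic acid target (Carubv10024983m.g), was at 10.1 and 11.4 CPM in Cg × Cr and 1.93 and 0.897 CPM in Cr (log2 fold change 2.92, SE 0.51, edgeR adjusted p = 0.0178). BRC2, a TCP factor of axillary buds (Carubv10020487m.g), had 22 and 17 counts in Cg × Cr and 1 and 0 in Cr, a ratio of 40.9 times (95% exact counting interval 6.93 to 1658). The call of HB21 was lost without Cr replicate 2 (0.0571), and that of HB12 without Cr replicate 1 (0.0971), Cr replicate 2 (0.201), Cg replicate 1 (0.0504), Cg replicate 2 (0.0503), Cg × Cr replicate 1 (0.135) or Cg × Cr replicate 2 (0.0878). MAPKKK17 lost its call without Cr replicate 2 (0.119), Cg × Cr replicate 1 (0.0561) or Cg × Cr replicate 2 (0.0652), and BRC2 without Cr replicate 1 (0.0658), Cr replicate 2 (0.128), Cg × Cr replicate 1 (0.0759) or Cg × Cr replicate 2 (0.0635).

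Papain-like proteases act in vacuoles and in tissues that die, and vacuolar processing enzymes mature storage proteins and act in the death of inner seed coat layers. Of 11 tested proteases of both kinds 3 rose and 1 fell, with a median log2 fold change of 1.05. Without Cr replicate 1 the list had 1 raised member and without Cr replicate 2 it had 0. Their summed level was 464 and 635 CPM in Cr and 921 and 1108 CPM in Cg × Cr.

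RD21A, a vacuolar papain-like protease (Carubv10008893m.g), was at 144 and 145 CPM in Cg × Cr and 45.7 and 52.9 CPM in Cr (log2 fold change 1.55, SE 0.23, edgeR adjusted p = 0.00904). The parent Cg was at 24.2 and 34.9 CPM, so both hybrid libraries were above both parents, and the difference from Cg passed as well (edgeR adjusted p = 0.00350). CEP2, a protease with an endoplasmic reticulum retention signal from a group found in dying tissue (Carubv10017509m.g), was at 5.81 and 9.04 CPM in Cg × Cr and 0.533 and 0.0780 CPM in Cr (log2 fold change 4.53, SE 0.96, edgeR adjusted p = 0.0317). The papain-like gene paired with AT4G23520 (Carubv10006494m.g) was at 13.3 and 17.3 CPM in Cg × Cr and 1.60 and 1.09 CPM in Cr (log2 fold change 3.49, SE 0.52, edgeR adjusted p = 0.0104). RD19A, a drought-inducible papain-like protease (Carubv10023719m.g), fell, at 0.631 and 1.21 CPM in Cg × Cr and 5.78 and 5.89 CPM in Cr (log2 fold change -2.67, SE 0.48, edgeR adjusted p = 0.0195). The 3 vacuolar processing enzymes did not pass: alpha-VPE (Carubv10025418m.g) was at 325 and 526 CPM in Cg × Cr and 229.9 and 424 CPM in Cr (adjusted p = 0.600). Beta-VPE (Carubv10020164m.g) was at 78.1 and 93.0 CPM in Cg × Cr and 54.0 and 28.4 CPM in Cr (adjusted p = 0.0822), and gamma-VPE (Carubv10006959m.g) at 155 and 172 CPM in Cg × Cr and 65.0 and 71.7 CPM in Cr (adjusted p = 0.0726). In beta- and gamma-VPE the libraries of the 2 crosses did not overlap. Of these 4 calls, 4 were lost without Cr replicate 1 (highest adjusted p 0.0642), 4 without Cr replicate 2 (0.147), 2 without Cg × Cr replicate 1 (0.0958) and 1 without Cg × Cr replicate 2 (0.104), and 0 without 1 of the Cg or Cr × Cg libraries.

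The aspartyl proteases had 5 of 19 tested members higher and none lower, with a median log2 fold change of 0.49. DESeq2 called 1 member lower. Their summed level did not rise, at 1805 and 2163 CPM in Cr and 1483 and 1783 CPM in Cg × Cr. The gene paired with AT5G37540 (Carubv10004834m.g) was at 31.2 and 20.5 CPM in Cg × Cr and 1.01 and 1.33 CPM in Cr (log2 fold change 4.47, SE 0.42, edgeR adjusted p = 0.00167), and that call held in every fit. It was also above Cg, at 3.16 and 2.26 CPM. PCS1, which keeps embryonic cells alive in Arabidopsis (Carubv10000953m.g), was at 25.6 and 30.8 CPM in Cg × Cr and 3.23 and 0.858 CPM in Cr (log2 fold change 3.76, SE 0.58, edgeR adjusted p = 0.0130), with Cg at 21.2 and 36.7 CPM. For the one paired with AT5G10770 (Carubv10000848m.g) the values were 62.9 and 88.8 CPM in Cg × Cr and 11.0 and 12.2 CPM in Cr (log2 fold change 2.71, SE 0.38, edgeR adjusted p = 0.00815). Another member, paired with AT1G44130 (Carubv10010968m.g), was chosen after its values were seen. It was at 3.82 and 1.82 CPM in Cg × Cr and 0.563 and 0.390 CPM in Cr (log2 fold change 2.54, SE 0.46, edgeR adjusted p = 0.0193). Cg was at 3.33 and 2.81 CPM and Cr × Cg at 17.4 and 17.4 CPM. The fifth, paired with AT5G19110 (Carubv10003010m.g), had 63 and 188 counts against 1 and 1, a ratio of 132 times (95% exact counting interval 36.1 to 1094). At 2.09 and 7.11 CPM in Cg × Cr it was below Cg, at 7.66 and 10.9 CPM, and Cr × Cg, at 17.8 and 10.5 CPM. Without either Cr library the list kept 2 raised members.

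LEA proteins and dehydrins, which protect cells as they dry, had 6 of 22 members higher and none lower, with a median log2 fold change of 1.41. Without Cr replicate 2 the raised members were 1, and without either Cg × Cr library 2. None of the 5 storage protein genes and none of the 5 oil body protein genes passed in either direction, at unadjusted p under 0.05 none as well, and DESeq2 called none of them. The Cr libraries differed widely in the storage protein genes, as given above, so this does not set them apart from the LEA genes.

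LEA14 (Carubv10010557m.g) was at 14.7 and 16.9 CPM in Cg × Cr and 2.04 and 1.48 CPM in Cr (log2 fold change 3.15, SE 0.40, edgeR adjusted p = 0.00502), with both Cg × Cr libraries above the 6 others. LEA7 (Carubv10012543m.g) was at 27.7 and 30.5 CPM in Cg × Cr and 1.07 and 0 CPM in Cr (log2 fold change 5.69, SE 1.29, edgeR adjusted p = 0.0499). The dehydrin paired with AT4G38410 (Carubv10005866m.g) was at 8.60 and 13.4 CPM in Cg × Cr and 1.30 and 2.38 CPM in Cr (log2 fold change 2.58, SE 0.54, edgeR adjusted p = 0.0306). The Cg mother was low in both, at 0.200 and 0.703 CPM for LEA7 and 0.233 and 0.407 CPM for the dehydrin. The LEA family gene paired with AT1G03120 (Carubv10010425m.g) was at 15.5 and 12.9 CPM in Cg × Cr and 3.91 and 5.27 CPM in Cr (log2 fold change 1.63, SE 0.33, edgeR adjusted p = 0.0286), and the one paired with AT2G46140 (Carubv10024196m.g) at 60.9 and 40.5 CPM in Cg × Cr and 15.6 and 24.7 CPM in Cr (log2 fold change 1.33, SE 0.30, edgeR adjusted p = 0.0370). In the first of these the Cg libraries, at 9.76 and 14.1 CPM, overlapped those of Cg × Cr, and in the other they lay above them, at 76.5 and 90.4 CPM. SAG21, described above, was the sixth. Of these 5 calls without SAG21, 3 were lost without Cr replicate 1 (highest adjusted p 0.159), 5 without Cr replicate 2 (0.120), 4 without Cg × Cr replicate 1 (0.177) and 4 without Cg × Cr replicate 2 (0.140), and 2 without 1 of the Cg or Cr × Cg libraries.

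The oleosin OLEO1, which coats oil bodies (Carubv10007289m.g), was at 720.3 and 644 CPM in Cg × Cr and 1006 and 267 CPM in Cr (edgeR adjusted p = 0.976). CLO1, a caleosin (Carubv10007431m.g), was at 104 and 68.2 CPM in Cg × Cr and 134 and 8.11 CPM in Cr (edgeR adjusted p = 0.945). The cruciferin paired with AT4G28520 (Carubv10006612m.g) ranged from 41.2 to 3876 CPM within Cr, so a difference between the crosses was not detectable. Of the 8 embryo and maturation regulators none passed edgeR, 3 had an unadjusted p under 0.05, and DESeq2 called 1 higher and 2 lower. LEC2 (Carubv10010882m.g) was at 23.5 and 38.4 CPM in Cg × Cr and 53.1 and 88.8 CPM in Cr (edgeR adjusted p = 0.0647) and WRI1, a switch of seed oil synthesis (Carubv10018845m.g), at 191 and 195 CPM in Cg × Cr and 282 and 423 CPM in Cr (edgeR adjusted p = 0.0679). In both the libraries of the 2 crosses did not overlap.

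Sucrose reaches the seed through the maternal tissue, is cleaved by cell wall and vacuolar invertases or taken up whole, and is passed on by SWEET exporters and hexose transporters. Of 23 tested sugar transporters and invertases 5 rose and 4 fell, with a median log2 fold change of 0.10. Without Cr replicate 2 or Cg × Cr replicate 1 no lowered member was called, and without Cr replicate 1 the raised members were 1.

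Among the raised members, the ERD6-like transporter paired with AT5G18840 (Carubv10000842m.g) was at 33.2 and 34.8 CPM in Cg × Cr and 6.37 and 6.63 CPM in Cr (log2 fold change 2.38, SE 0.25, edgeR adjusted p = 0.00254), and the call held in every fit. STP1, a hexose-proton symporter (Carubv10008855m.g), was at 11.5 and 7.98 CPM in Cg × Cr and 2.55 and 1.48 CPM in Cr (log2 fold change 2.27, SE 0.41, edgeR adjusted p = 0.0196). STP8, of the same family (Carubv10003709m.g), was at 3.49 and 9.11 CPM in Cg × Cr and 1.75 and 1.56 CPM in Cr (log2 fold change 1.92, SE 0.46, edgeR adjusted p = 0.0487). Both were low in Cr, and STP8 was higher in Cg, at 28.5 and 24.9 CPM, than in Cg × Cr. The vacuolar invertase paired with AT1G62660 (Carubv10019930m.g) was at 3.09 and 2.00 CPM in Cg × Cr and 0.0296 and 0.156 CPM in Cr (log2 fold change 4.80, SE 0.75, edgeR adjusted p = 0.0112). The cell wall invertase family member cwINV6 (Carubv10000634m.g) had only 7 and 9 counts in Cg × Cr and none in Cr, at least 5.60-fold.

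The lowered members were TMT1, a tonoplast sugar importer, an ERD6-like transporter, cwINV1 and SWEET15. TMT1 (Carubv10008415m.g) was at 103 and 124 CPM in Cg × Cr and 224 and 321 CPM in Cr (log2 fold change -1.27, SE 0.24, edgeR adjusted p = 0.0231). The ERD6-like gene paired with AT1G19450 (Carubv10012080m.g) was at 82.7 and 117 CPM in Cg × Cr and 194 and 282 CPM in Cr (log2 fold change -1.25, SE 0.27, edgeR adjusted p = 0.0349). The cell wall invertase cwINV1 (Carubv10013316m.g) was at 16.0 and 11.9 CPM in Cg × Cr and 31.2 and 31.0 CPM in Cr (log2 fold change -1.15, SE 0.27, edgeR adjusted p = 0.0423). In TMT1 and the ERD6-like gene the Cg libraries overlapped those of Cg × Cr. SWEET12, a sucrose exporter (Carubv10001629m.g), was at 19.1 and 12.1 CPM in Cg × Cr and 75.5 and 77.3 CPM in Cr and did not pass (adjusted p = 0.0656). SUC2, the phloem sucrose loader (Carubv10008884m.g), was at 275 and 801 CPM in Cg × Cr and 388 and 474 CPM in Cr (adjusted p = 0.839), and its 2 Cg × Cr libraries lay on either side of Cr. Of these 8 calls, without SWEET15, 6 were lost without Cr replicate 1 (highest adjusted p 0.158), 6 without Cr replicate 2 (0.265), 5 without Cg × Cr replicate 1 (0.167) and 5 without Cg × Cr replicate 2 (0.174), and 2 to 3 without 1 of the Cg or Cr × Cg libraries.

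Cell wall enzymes gave few calls. Pectin methylesterases remove methyl groups from pectin and thereby change wall stiffness. Of 19 tested members 3 rose and 1 fell, with a median log2 fold change of 0.70. PME17 (AT2G45220, Carubv10022941m.g) was at 12.3 and 5.63 CPM in Cg × Cr and 0.474 and 0.390 CPM in Cr (log2 fold change 4.36, SE 0.57, edgeR adjusted p = 0.00566), and at 0.633 and 0.518 CPM in Cg. The gene paired with AT3G43270 (Carubv10017009m.g) was at 6.87 and 8.74 CPM in Cg × Cr and 0.444 and 0.312 CPM in Cr (log2 fold change 4.34, SE 0.49, edgeR adjusted p = 0.00348), and the call held in every fit. Both were above all libraries of the other 3 crosses. The gene paired with AT5G26810 (Carubv10003078m.g) was at 8.70 and 10.6 CPM in Cg × Cr and 0.978 and 1.37 CPM in Cr (log2 fold change 3.04, SE 0.44, edgeR adjusted p = 0.00844), and higher still in Cg, at 22.8 and 18.5 CPM. The lowered gene, paired with AT3G24130 (Carubv10021607m.g), had 0 and 1 counts in Cg × Cr and 25 and 31 in Cr, which was higher by 53.3 times (95% exact counting interval 9.19 to 2144).

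Xyloglucan endotransglucosylases and expansins had 2 of 21 members higher, EXPA9 and XTH24, and 1 lower. The lowered one was XTH33 (Carubv10009787m.g), at 15.1 and 18.5 CPM in Cg × Cr and 109 and 67.8 CPM in Cr (log2 fold change -2.39, SE 0.27, edgeR adjusted p = 0.00346), with the Cg and Cr × Cg libraries also above Cg × Cr. That call held in every fit. MAN1, an endo-mannanase (Carubv10011405m.g), chosen after its values were seen, was at 5.28 and 4.69 CPM in Cg × Cr and 1.04 and 0.468 CPM in Cr (log2 fold change 2.71, SE 0.61, edgeR adjusted p = 0.0382). Of these 5 calls of pectin methylesterases and XTH33, 1 was lost without Cr replicate 1 (highest adjusted p 0.0631), 3 without Cr replicate 2 (0.0699), 1 without Cg × Cr replicate 1 (0.0684) and 0 without Cg × Cr replicate 2 (0.0419), and 0 without 1 of the Cg or Cr × Cg libraries. The call of MAN1 was lost without Cr replicate 1 (0.0757), Cr replicate 2 (0.207), Cr × Cg replicate 1 (0.0556), Cr × Cg replicate 2 (0.0566), Cg × Cr replicate 1 (0.137) or Cg × Cr replicate 2 (0.104).

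Seed coat and endosperm regulators gave few calls. TT12, a vacuolar transporter of proanthocyanidin precursors in the seed coat (Carubv10018603m.g), was at 70.0 and 81.0 CPM in Cg × Cr and 26.6 and 22.8 CPM in Cr (log2 fold change 1.61, SE 0.28, edgeR adjusted p = 0.0161), and the Cg mother was at 76.9 and 127 CPM. MUM4, which makes a precursor of seed coat mucilage (Carubv10008513m.g), was at 211 and 48.1 CPM in Cg × Cr and 436 and 485 CPM in Cr (edgeR adjusted p = 0.153). HDG3, an imprinted homeodomain gene of the endosperm in Arabidopsis (Carubv10022676m.g), fell to 42.6 and 68.1 CPM from 110.2 and 159 CPM (log2 fold change -1.28, SE 0.30, edgeR adjusted p = 0.0418). Its call was lost in each of the 8 fits without 1 library, with adjusted p up to 0.224, and that of TT12 without Cr replicate 1 (0.073), Cr replicate 2 (0.133) or Cg × Cr replicate 2 (0.0693). The other 4 tested members of the Polycomb and imprinting list had log2 fold changes below 0 and did not pass edgeR. For FIS2, a Polycomb subunit (Carubv10024660m.g), the values were 1.20 and 3.67 CPM in Cg × Cr and 6.87 and 10.6 CPM in Cr (adjusted p = 0.123). For SUVH7 (Carubv10011407m.g) they were 1.69 and 2.61 CPM in Cg × Cr and 4.74 and 8.66 CPM in Cr (adjusted p = 0.0764), and DESeq2 called 3 of the 5 lower. Chosen after its values were seen, INO, a YABBY factor of the outer integument (Carubv10012024m.g), was at 1.66 and 4.35 CPM in Cg × Cr and 0.119 and 0.117 CPM in Cr (log2 fold change 4.62, SE 0.84, edgeR adjusted p = 0.0195). UGT75C1, an anthocyanin glucosyltransferase (Carubv10007134m.g), was at 2.03 and 2.34 CPM in Cg × Cr and 0.178 and 0.156 CPM in Cr (log2 fold change 3.67, SE 0.65, edgeR adjusted p = 0.0184). INO lost its call without Cr replicate 1 (0.0999), Cr replicate 2 (0.132) or Cg × Cr replicate 2 (0.0652), and UGT75C1, chosen in the same way, without Cr replicate 1 (0.085), Cr replicate 2 (0.125), Cg × Cr replicate 1 (0.0529) or Cg × Cr replicate 2 (0.0619).

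Kinesins and phragmoplast proteins build the cell plate that divides plant cells. None of the 28 kinesin and phragmoplast genes passed edgeR, 5 had an unadjusted p under 0.05, DESeq2 called 1 higher and 1 lower, and the median log2 fold change was -0.37. The syntaxin KNOLLE, which fuses vesicles at the cell plate (Carubv10012277m.g), was at 215 and 312 CPM in Cg × Cr and 385 and 443 CPM in Cr (edgeR adjusted p = 0.408). Against Cr × Cg, 24 of the 28 were higher in Cg × Cr, beside 13.0% of all tested genes. The 28 come from the study's pairs, many of them chosen as deregulated in its own seeds, so this is no independent evidence. Of the 1063 tested homologues of genes lowered in WT × osd1 (seeds with an extra paternal genome, described below), 515 were higher in Cg × Cr than in Cr × Cg.

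Among called genes averaging at least 1 CPM, the 3 with the largest falls had no Arabidopsis partner. Carubv10024304m.g fell from 239 and 233 CPM in Cr to 1.43 and 0.983 CPM in Cg × Cr (log2 fold change -7.60, SE 0.82, edgeR adjusted p = 0.00475). Carubv10010889m.g was at 0 and 0.151 CPM in Cg × Cr and 24.3 and 14.8 CPM in Cr (log2 fold change -8.01, SE 1.11, edgeR adjusted p = 0.00844), and Carubv10021928m.g at 0.0996 and 1.32 CPM in Cg × Cr and 105 and 58.6 CPM in Cr (log2 fold change -6.88, SE 0.86, edgeR adjusted p = 0.00814). In all 3 the Cg libraries were at most 1.56 CPM, and the calls held in every fit. Among those with the smallest p-values, Carubv10015398m.g was at 12.9 and 10.9 CPM in Cg × Cr and 73.4 and 65.3 CPM in Cr (log2 fold change -2.54, SE 0.20, edgeR adjusted p = 0.00126) and Carubv10028386m.g at 32.5 and 36.1 CPM in Cg × Cr and 143 and 164 CPM in Cr (log2 fold change -2.16, SE 0.19, edgeR adjusted p = 0.00147). The hybrid levels of these lay between the parents, with Cg at 3.46 and 4.07 and 19.6 and 16.5 CPM. Carubv10007086m.g, paired with AT4G23110, was at 0.0664 and 0.0756 CPM in Cg × Cr and 2.70 and 3.24 CPM in Cr (log2 fold change -5.30, SE 0.45, edgeR adjusted p = 0.00144), whereas Cg was at 10.3 and 12.2 CPM, so the hybrid was below both parents.

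The lowered genes with a partner included enzymes, cell wall proteins and a sperm protein. Among those with most counts, MGL, which degrades methionine (Carubv10020309m.g), was at 164 and 229 CPM in Cg × Cr and 471 and 516 CPM in Cr (log2 fold change -1.33, SE 0.25, edgeR adjusted p = 0.0231). PATL4, a phosphoinositide-binding patellin (Carubv10008738m.g), was at 263 and 359 CPM in Cg × Cr and 617 and 945 CPM in Cr (log2 fold change -1.33, SE 0.28, edgeR adjusted p = 0.0320). The call of MGL was lost without Cr replicate 1 (0.0646), Cr replicate 2 (0.12) or Cg × Cr replicate 1 (0.106), and that of PATL4 without Cr replicate 2 (0.173), Cg replicate 1 (0.0515), Cg replicate 2 (0.0515), Cg × Cr replicate 1 (0.148) or Cg × Cr replicate 2 (0.0674). The following genes were chosen after their values were seen. EXT3, an extensin needed for the cell plate in Arabidopsis embryos (Carubv10009850m.g), was at 7.34 and 16.6 CPM in Cg × Cr and 102 and 86.5 CPM in Cr (log2 fold change -2.98, SE 0.63, edgeR adjusted p = 0.0381). LAC8, a laccase (Carubv10000548m.g), was at 0.0332 and 0.832 CPM in Cg × Cr and 7.47 and 6.55 CPM in Cr (log2 fold change -4.04, SE 0.94, edgeR adjusted p = 0.0480). In both the Cg libraries were low as well, at 2.16 and 7.99 and 0.266 and 0.0740 CPM. CKI1, a histidine kinase that specifies the central cell in Arabidopsis (Carubv10025468m.g), was at 0.863 and 0.794 CPM in Cg × Cr and 4.09 and 9.01 CPM in Cr (log2 fold change -2.97, SE 0.63, edgeR adjusted p = 0.0322). HAP2, a fusion protein of sperm cells (Carubv10002940m.g), was at 11.3 and 18.6 CPM in Cg × Cr and 40.0 and 52.8 CPM in Cr (log2 fold change -1.64, SE 0.29, edgeR adjusted p = 0.0193). The light-harvesting gene paired with AT2G34430 (Carubv10023856m.g) was at 9.13 and 16.9 CPM in Cg × Cr and 43.4 and 51.4 CPM in Cr (log2 fold change -1.87, SE 0.41, edgeR adjusted p = 0.0369), the single call among 4 tested genes of that kind. EXT3 lost its call without Cr replicate 1 (0.116), Cr replicate 2 (0.142), Cr × Cg replicate 1 (0.0669), Cr × Cg replicate 2 (0.0633), Cg × Cr replicate 1 (0.132) or Cg × Cr replicate 2 (0.062), and LAC8 without Cr replicate 1 (0.122), Cr replicate 2 (0.163), Cg replicate 1 (0.0655), Cg replicate 2 (0.0664), Cr × Cg replicate 1 (0.0815), Cr × Cg replicate 2 (0.0802) or Cg × Cr replicate 1 (0.0503). For CKI1 the call was lost without Cr replicate 2 (0.185), Cg × Cr replicate 1 (0.133) or Cg × Cr replicate 2 (0.131), for HAP2 without Cr replicate 2 (0.12) or Cg × Cr replicate 1 (0.0789) and for the light-harvesting gene without Cr replicate 1 (0.0877), Cr replicate 2 (0.167) or Cg × Cr replicate 1 (0.14). The receptor kinase CRK11 (Carubv10004487m.g), at 0.0664 and 0.0756 CPM in Cg × Cr and 3.32 and 2.57 CPM in Cr (log2 fold change -5.30, SE 0.70, edgeR adjusted p = 0.00610), and FLS3, a flavonol synthase family member (Carubv10026825m.g), at 0.930 and 0.756 CPM in Cg × Cr and 8.09 and 9.95 CPM in Cr (log2 fold change -3.41, SE 0.41, edgeR adjusted p = 0.00447), held in every fit.

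**Figure D4:**
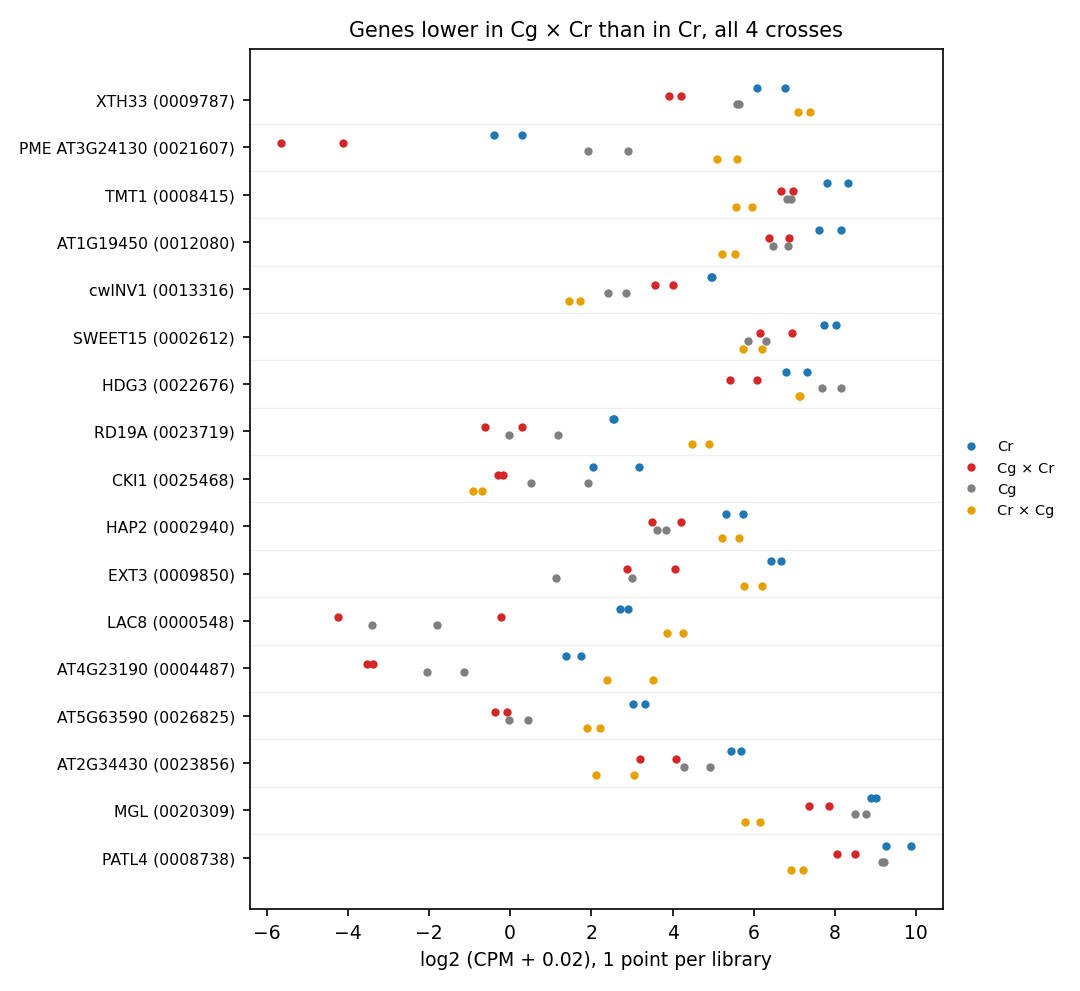
Each row is 1 gene and each point 1 library of the 4 crosses, on a log2 axis of CPM plus 0.02. The Cg × Cr libraries (red) lie below the Cr libraries (blue) in every row, and the Cg libraries (grey) lie with Cg × Cr in LAC8 and TMT1 but above it in HDG3 and XTH33.

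Major latex proteins and NLR receptors gave small groups of raised genes. Of 9 tested major latex proteins (small ligand-binding proteins) 3 were higher and none lower, with a median log2 fold change of 2.35. DESeq2 called 1 of the 9 lower. Their summed level was 56.3 and 67.7 CPM in Cr and 60.0 and 74.9 CPM in Cg × Cr. MLP328 (AT2G01520, Carubv10018184m.g) was at 21.7 and 19.7 CPM in Cg × Cr and 0.474 and 0.936 CPM in Cr (log2 fold change 4.89, SE 0.54, edgeR adjusted p = 0.00337), and held in every fit. MLP423 (Carubv10010538m.g) was at 4.51 and 14.2 CPM in Cg × Cr and 1.10 and 0.819 CPM in Cr (log2 fold change 3.27, SE 0.69, edgeR adjusted p = 0.0341). In the gene paired with AT1G14940 (Carubv10011229m.g) there were 75 and 21 counts against 1 and 0, a ratio of 101 times (95% exact counting interval 17.7 to 4021). MLP423 lost its call without Cr replicate 1 (0.128), Cr replicate 2 (0.22) or Cg × Cr replicate 2 (0.0968), and the gene paired with AT1G14940 without Cr replicate 1 (0.113), Cr replicate 2 (0.197), Cg replicate 1 (0.0505), Cg replicate 2 (0.0508), Cg × Cr replicate 1 (0.155) or Cg × Cr replicate 2 (0.0563). Of 8 NLR genes, intracellular receptors of pathogen effectors, 4 were higher. The one paired with LAZ5 (Carubv10025792m.g) was at 7.83 and 9.30 CPM in Cg × Cr and 0.533 and 0.468 CPM in Cr (log2 fold change 4.08, SE 0.40, edgeR adjusted p = 0.00203), with Cg at 9.82 and 7.18 CPM, and was the only one left without either Cr library or either Cg × Cr library. NLR genes differ between species in copies and sequence, and alignment to 1 genome and discarded multi-mapping reads leave their counts uncertain.

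The study's tables also list Capsella homologues of Arabidopsis genes deregulated in seeds with an extra parental genome, made with the osd1 mutant, which forms unreduced gametes. The lists were filled with genes the study chose partly on these libraries, so they are no independent evidence of a direction. Homologues raised when the extra genome came from the father (WT × osd1) had 80 higher and 23 lower members of 830, with a median log2 fold change of 0.26 (0.19 with uncounted genes at their bound). Those lowered in WT × osd1 had 35 higher and 45 lower of 1063 and a median of -0.14. With the extra genome from the mother (osd1 × WT), the raised list had 21 higher and 6 lower of 241, with a median of 0.43. The lowered list had 29 higher and 24 lower of 345, with a median of -0.29. Of all paired genes 6.79% were higher and 3.56% lower, beside 9.64 and 2.77% of the first list. Without Cr replicate 2 the higher and lower members were 16 and 0 in the list raised in WT × osd1, 8 and 5 in the one lowered in it, 3 and 0 in the list raised in osd1 × WT and 10 and 2 in the one lowered in it. The list raised in osd1 × WT had no lower member without Cr replicate 1 or Cg × Cr replicate 2 either.

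The same change of mother could be followed with the other father, in Cg against Cr × Cg. These 4 libraries are not among those whose levels Cg × Cr against Cr compares. They did share its fit and its estimate of spread, so the 2 sets of calls are not independent. This comparison was added after the data were seen. With the C. grandiflora father 7.59% of the tested genes were higher and 7.28% lower. Of the 968 genes raised in Cg × Cr, 753 (77.8%) had the same direction there, 365 (37.7%) were called in it and 36 in the opposite one. Of the 405 lowered genes, 327 (80.7%) had the same direction, 219 (54.1%) were called in it and 26 in the opposite one. The share of all tested genes with the same direction in both comparisons was not counted, so these shares have no background beside them. The median log2 fold changes with the other father were 1.07 and -1.34. Across all 21214 genes, which are not independent replicates and share the alignment to 1 genome, the log2 fold changes of the 2 comparisons correlated with r = 0.364.

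A test of the interaction asked whether the change of mother acted differently with the 2 fathers. The same contrast sets both hybrids against both parents, and the 2 readings cannot be told apart. The test passed in 5.85% of all tested genes. It passed in 231 of the raised genes (23.9%) and 112 of the lowered genes (27.7%), and these genes were chosen by a part of the same contrast. Carubv10007795m.g, uncounted in Cr, followed the mother with either father, since Cg had 2862 and 3467 counts of it and Cr × Cg had 1 and 0. PME17 (Carubv10022941m.g) also rose with either father (edgeR adjusted p = 0.0396 with the C. grandiflora father) and did not pass the interaction (edgeR adjusted p = 0.249): it was at 0.633 and 0.518 CPM in Cg and 0.119 and 0.0843 CPM in Cr × Cg, well below the 12.3 and 5.63 CPM of Cg × Cr. DIN2 and SAG21 turned the other way, since they were lower in Cg than in Cr × Cg, where SAG21 was at 22.8 and 19.9 CPM and Cg at 2.73 and 5.96 CPM.

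**Figure D5:**
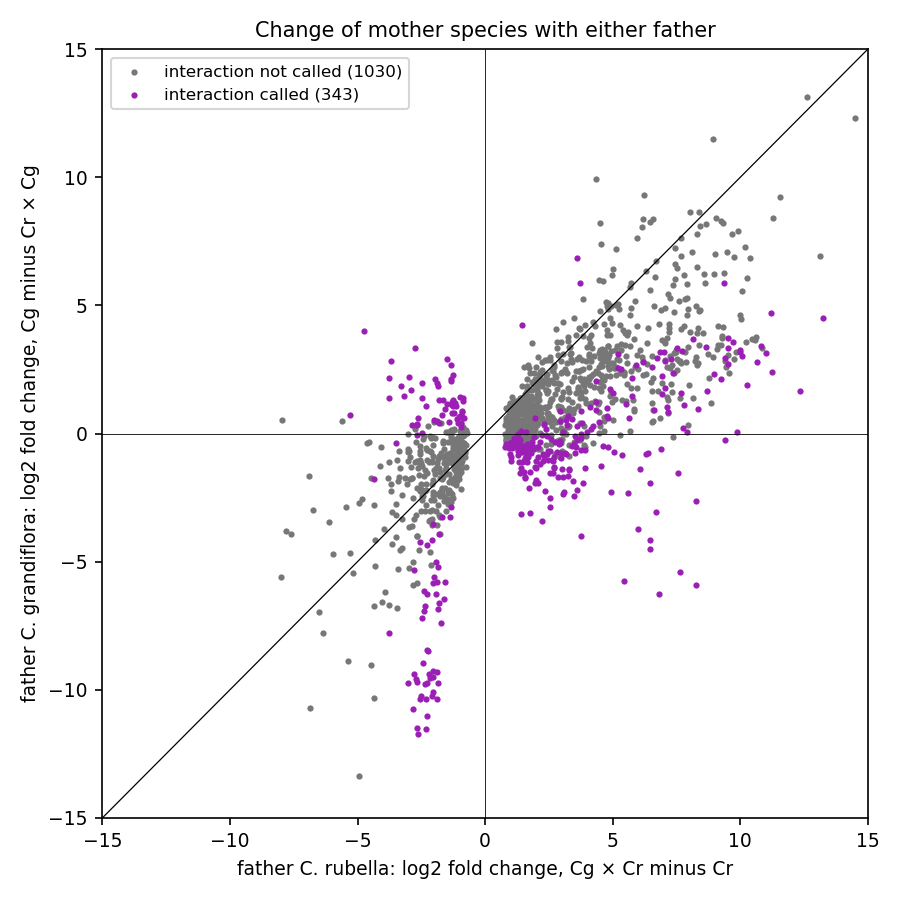
Each point is 1 of the 1373 genes that differed between Cg × Cr and Cr, with its log2 fold change for a C. grandiflora against a C. rubella mother when the father was C. rubella (x) or C. grandiflora (y), purple where the edgeR interaction had an adjusted p under 0.05. Most raised genes (753 of 968) and lowered genes (327 of 405) share their sign, and many lie off the diagonal of equal change.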

How the data were processed

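RNA of seeds of 4 crosses was sequenced with 2 libraries per cross, prepared with Illumina's TruSeq RNA kit. Per the methods and the submitters' processing notes, reads were trimmed with Trimmomatic, aligned with Stampy to the C. rubella genome (version 1.0), freed of reads mapping to multiple locations with SAMtools (quality minimum of 4) and counted per gene with htseq-count under default options. The authors deposited these counts without normalization, and 0 columns of the table were left unmapped to a sample. Groups and replicate numbers came from the sample labels. Tests used edgeR 4.0.16 under R 4.3.3 (filterByExpr, count minimum of 10, TMM factors 0.955 to 1.03, robust quasi-likelihood fit of all 8 libraries, common dispersion 0.0918, residual df of 4, median prior df of 4.23), with Benjamini-Hochberg adjustment over all 21214 genes. The SE is the absolute log2 fold change divided by the square root of the F statistic and restates the test. Tested genes took 99.97 to 99.99% of a library. Counts from PCR-amplified reads are not independent molecules, so counting intervals and floors cover counting error only.

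Named genes were the 8 called genes with the largest change, the 4 with the highest mean CPM and the 4 with the smallest p in each direction (mean of at least 1 CPM, libraries not overlapping), up to 4 called members per list, and the uncounted genes with the highest CPM in the other cross. Those without annotation were limited to the first few. Genes outside the rule and the lists are said to be chosen after their values were seen. Further members of the senescence, NAC, protease, LEA, sugar, regulator and other lists were chosen in the same way, mostly without a mark at the gene. The members and lists were chosen with earlier results of these data known. Arabidopsis partners came from the study's supplementary tables, in which 381 genes stand in both the raised and lowered osd1 × WT columns and were kept only as lowered. Pollen, photosynthesis, endosperm breakdown and a first LEA list held 1, 1, 3 and 2 tested genes, none called. No genome, annotation or product description was used, so positions, sequences and promoters are not analysed here. The alternatives were DESeq2 1.42.0, its size factors in edgeR, 2 other filters, a fit of the 2 crosses alone, the replicate number as a block, 2 fold thresholds, a rank product (100 permutations, pseudocount of 1, percentage of false prediction under 0.05) written in Python 3.11.15 (pandas 2.3.3, NumPy 2.4.6, SciPy 1.17.1, matplotlib 3.10.9), and each library left out. The results of 1 gene family are not reported here.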

Additional observations from a re-analysis of the deposited data

Results flagged for a closer look

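Of the 79 genes named as different between Cg × Cr and Cr, 41 passed edgeR's interaction test (adjusted p under 0.05). In these the effect of the mother's species differed between the fathers, which is the same contrast as both hybrids against both parents. The test passed in 5.85% of all genes, and in 23.9% of the raised and 27.7% of the lowered genes. Named genes were chosen by a part of the same contrast, so their larger share is no independent evidence. The values are the log2 fold change of Cg × Cr against Cr minus that of Cg against Cr × Cg, so a positive value is a larger rise, or a smaller fall, with the C. rubella father. Genes without a partner had 8.73 for Carubv10001198m.g, 8.84 for Carubv10018040m.g, 3.82 for Carubv10020898m.g, 3.51 for Carubv10020899m.g and 1.69 for Carubv10015398m.g. Senescence genes and NAC factors had 10.63 for DIN2, 5.80 for ORS1 and 5.38 for SAG21. Other transcription factors had 5.78 for BRC2 and 5.37 for HB21. Proteases had 5.92 for the papain-like gene paired with AT4G23520, 7.52 for the aspartyl protease paired with AT5G19110, 4.04 for the one paired with AT5G37540, 3.80 for PCS1, 4.06 for the one paired with AT5G10770 and 5.04 for the one paired with AT1G44130. Cell wall enzymes had 2.13 for EXPA9, 3.42 for the pectin methylesterase paired with AT3G43270, 2.98 for the one paired with AT5G26810 and 3.61 for MAN1. Sugar genes had 7.45 for cwINV6, 5.31 for the vacuolar invertase, 2.19 for the ERD6-like gene paired with AT5G18840, 3.32 for STP1, -2.36 for TMT1, -2.54 for the ERD6-like gene paired with AT1G19450 and -2.21 for cwINV1. Seed coat, endosperm and other genes with positive values had 6.53 for CSY1, 5.12 for INO, 2.39 for TT12, 4.64 for MLP423, 3.17 for MLP328, 2.44 for the LEA gene paired with AT2G46140, 3.32 for the GILT gene paired with AT4G12870 and 1.82 for the GILT gene paired with AT4G12900. Further genes with negative values had -2.09 for HDG3, -5.19 for CKI1, -3.84 for the light-harvesting gene, -3.99 for MGL, -3.44 for PATL4 and -6.02 for the gene paired with AT4G23110. Fitted values of genes without a count in Cr (Carubv10001198m.g, Carubv10018040m.g and cwINV6) depend on the prior count. The interaction uses the Cr × Cg libraries, in which 24.6% of the tested genes differed from Cg × Cr. Of these genes, 6 turned from lower with the C. rubella father to higher with the other, each past the threshold on both sides: MGL, PATL4, TMT1, the ERD6-like gene paired with AT1G19450, cwINV1 and the light-harvesting gene. In the opposite sense 5 turned, higher with the C. rubella father and lower with the other: DIN2, SAG21 and the genes paired with AT4G23520, AT2G46140 and AT1G44130.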

How the results depend on the processing

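The genes named as called kept the sign of their log2 fold change in every alternative fitted to single genes. Of the genes named that were not called, ORE1, OLEO1, CLO1, SUC2, alpha-VPE and both cruciferins turned in at least 1 of the fits without a Cr or Cg × Cr library, the cruciferins also with the block. DESeq2 gave 1599 higher and 926 lower genes, of which 964 and 404 were also called by edgeR. DESeq2 kept all 79 calls of genes named here, edgeR with DESeq2's size factors 78, no filter 75 and a fit of the 2 crosses alone 66 of 78. A test against a 2-fold change (glmTreat) left 332 and 72, and the rank product of same-numbered pairs called 99 and 40. Leaving out 1 library gave between 175 and 803 higher and between 59 and 343 lower genes, and 156 and 47 were called in all of these fits, a count added after seeing the data. A cross left with 1 library was assumed to vary like the others. With the replicate number as a block there were 753 higher and 318 lower genes, and 67 of the 79 named calls were kept. Those of SWEET15, STP8, cwINV6, HB12, HDG3, CKI1, LAC8, LEA7, MLP423, the light-harvesting gene and the genes paired with AT4G12900 and AT2G46140 were not. The deviations of same-numbered Cr and Cg × Cr libraries correlated with r = 0.228, but 2 numbers do not establish a pairing. The share of higher among all calls was 70.5% and lay between 63.3 (DESeq2) and 82.2% (glmTreat) over these settings. Low counts limit genes under 1 CPM. Positions and promoter motifs, planned as further results, were not run.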
